A study of Arabidopsis thaliana with 4 samples.

Results

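The Aux/IAA genes *IAA7*, *IAA9*, *IAA11*, *IAA13*, *IAA14* and *IAA18* of *Arabidopsis thaliana* were followed through a short auxin treatment. They were taken by name as members of the Aux/IAA clades other than those of *IAA1* to *IAA6*, *IAA19* and the divergent *IAA29* to *IAA31*. All 6 had 1 named probe set each. Of 29 Aux/IAA genes listed, 20 could be tied to a probe set, and 22746 probe sets were tested. Wild-type Columbia (Col-0) seedlings, grown in the light to an age of 5 days, were immersed for 2 h either in water (mock, 2 arrays) or in water that contained IAA at 10 µM (2 arrays). IAA is indole-3-acetic acid, the auxin most abundant in plants. Both groups thus shared the immersion and differed in the hormone. Total RNA of seedlings was hybridized to Affymetrix arrays. Each probe set has 1 RMA expression value per array, given here on a linear scale.

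Aux/IAA proteins are short-lived nuclear repressors. They bind Auxin Response Factors (ARFs), the DNA-binding factors of the pathway, and bring corepressors of the TOPLESS family to the promoters those factors occupy. Auxin joins an Aux/IAA protein to a receptor of the TIR1/AFB family, which marks the repressor for destruction by the proteasome and frees the ARF. Many *Aux/IAA* genes are themselves targets of ARFs, so that their transcripts accumulate while the proteins are being destroyed.

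The 4 arrays had median values between 62.2 and 63.5. Across probe sets, log2 values correlated with r = 0.997 between the mock arrays, 0.994 between the IAA arrays and no more than 0.988 across the groups. The highest value of 27 bacterial control probe sets, taken here as a cautious mark of background, was 37.6, and every member lay above it on every array. Of 4 root marker genes, *CASP5* (log2 change -0.99) and *TIP2;3* (-1.13) fell, and *PYK10* (-0.09) and *EXPA7* (-0.40) were not called. Both IAA arrays of *EXPA7* were below both mock arrays. By the rule given below, it missed the call only through B (-2.30, limma adjusted p = 0.0922). *CASP5* marks the endodermis, the inner cell layer with the Casparian strip, and *TIP2;3* encodes a water channel. The probe set of *TIP2;3* was named only through the study's lists of auxin-changed transcripts, chosen on these same arrays. Its call was therefore fixed by that choice, and *CASP5* is on those lists as well. The summed value of the 4 was 3337 and 3939 in the mock arrays and 3215 and 2785 in the IAA arrays. Most of each sum was *PYK10* alone, at 2407 and 2943 in mock and 2707 and 2325 in IAA. The sum therefore says little of the other 3 markers. The lowest value of any of the 4 was 48.3. The 1 shoot marker with a named probe set, *PRK*, was not called (-0.20). In RNA from whole seedlings, fewer cells of a type and less RNA per cell cannot be told apart. The part of these shifts in the members' values was not tested.

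After IAA, 5 of the 6 genes were increased and *IAA18* was not called. Of all 22746 probe sets, 1.48% were called higher and 0.374% lower by the rule used throughout, a limma adjusted p below 0.10 together with a log odds of change, B, above 0. These shares cannot be used to judge the 5 calls, since the members were chosen with earlier results of these data known. For 4 of the 5 the limit is stronger. The probe sets of *IAA9*, *IAA11*, *IAA13* and *IAA14* had no other source of identity than the study's list of auxin-increased transcripts, which was chosen on these same arrays. That list therefore fixed the direction of all 4. *IAA7* was named through a list of transcripts lowered by brassinosteroid on other arrays, and *IAA18* through the array's annotation. *IAA7* is on the study's auxin lists as well. The median log2 change of the 6 members was 1.22, against -0.02 for all probe sets tested, and the same limit applies to it.

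*IAA14* (AT4G14550), also called *SOLITARY ROOT*, encodes a repressor whose stabilized form prevents the formation of lateral roots. Its probe set, 245593_at, read 78.5 and 71.7 in the mock arrays and 235 and 244 in the IAA arrays. Both IAA arrays were far above both mock arrays, and the members of each pair of replicates were close. The group means were 75.1 ± 4.81 for mock and 240 ± 6.44 for IAA (SD, n = 2 in each group). This is a 3.19-fold increase, with a 95% interval from 2.71-fold to 3.76-fold (log2 change 1.68 ± 0.09 SE, limma adjusted p = 0.00156).

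*IAA13* (AT2G33310) belongs to the clade of *BODENLOS*, whose products restrain the ARF MONOPTEROS during formation of the embryonic root. Its probe set, 255788_at, read 344 and 321 in mock and 1060 and 924 in IAA. The IAA arrays were apart from each other by a factor of 1.15, the widest gap between replicates among the members, yet the groups did not overlap. The means were 332 ± 15.9 and 992 ± 95.9 (SD, n = 2), a 2.98-fold increase (95% interval 2.48-fold to 3.58-fold, log2 change 1.57 ± 0.11 SE, limma adjusted p = 0.00301).

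*IAA11* (AT4G28640), of the same clade as *IAA13*, read 76.8 and 77.7 in mock and 221 and 204 in IAA through probe set 253791_at. The mock arrays were nearly equal, and both IAA arrays stood above them. From 77.2 ± 0.63 to 212 ± 11.7 (SD, n = 2) the increase was 2.75-fold, with an interval from 2.35-fold to 3.22-fold (log2 change 1.46 ± 0.09 SE, limma adjusted p = 0.00218).

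*IAA9* (AT5G65670) belongs to the clade of *IAA8* and *IAA27*, and its closest tomato counterpart controls leaf shape and fruit set. Its probe set, 247148_at, read 912 and 958 in mock and 1875 and 1829 in IAA. The groups were well apart, and the residual spread between replicates was the smallest of the 6 genes. The means, 935 ± 32.3 and 1852 ± 32.5 (SD, n = 2), gave a 1.98-fold increase (95% interval 1.70-fold to 2.31-fold, log2 change 0.99 ± 0.09 SE, limma adjusted p = 0.00733). Without mock replicate 1 the change was 0.95, and it was no longer called (limma adjusted p = 0.106).

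*IAA7* (AT3G23050), or *AXR2*, encodes a repressor whose stabilized form, in the *axr2-1* mutant, makes plants dwarf and resistant to auxin. Its probe set, 257769_at, read 1813 and 1789 in mock and 3039 and 3432 in IAA. The mock arrays were close, the IAA arrays differed by a factor of 1.13, and the groups did not overlap. From 1801 ± 17.2 to 3236 ± 278 (SD, n = 2) the increase was 1.79-fold, the smallest of the 5 (95% interval 1.51-fold to 2.13-fold, log2 change 0.84 ± 0.10 SE, limma adjusted p = 0.0182). The call was lost when either mock array was left out, with limma adjusted p = 0.169 without mock replicate 1 and 0.159 without mock replicate 2, at log2 changes of 0.85 and 0.83.

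*IAA18* (AT1G51950) encodes a repressor whose stabilized form disturbs cotyledon and lateral root development. Its probe set, 246376_at, read 263 and 281 in mock and 254 and 273 in IAA. Here the groups overlapped, since IAA replicate 2 lay above mock replicate 1. The means were 272 ± 13.1 and 264 ± 13.4 (SD, n = 2), and the log2 change was -0.05 ± 0.10 SE (limma adjusted p = 0.827). The 95% interval of the change, from 0.823-fold to 1.14-fold, lay wholly below the intervals of the other 5 members. An increase of the size seen in *IAA7* was therefore outside the interval for *IAA18*.

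**Figure D1:**
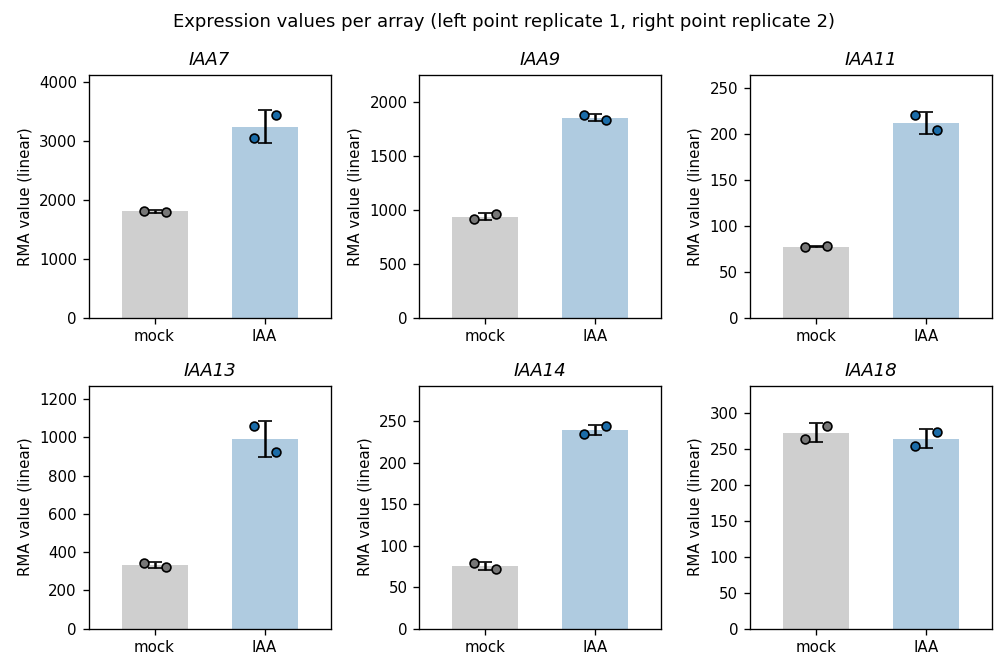
RMA expression values (vertical axes, linear scale from 0, a separate scale for each gene) in mock and IAA seedlings; points are single arrays, bars are means and error bars are SD (n = 2). Both IAA arrays lie above both mock arrays in 5 panels, and in *IAA18* the points of both groups lie together between 254 and 281.

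Both IAA arrays were above both mock arrays in 5 of the 6 members, a pattern that held in 24.5% of all probe sets tested. Nothing is read from that share, since the direction of *IAA9*, *IAA11*, *IAA13* and *IAA14* was fixed by the list that named them. *IAA7* is on the study's auxin lists as well, and the members were chosen with earlier results of these data known. The residual SD on the log2 scale ran from 0.04 in *IAA9* to 0.11 in *IAA13*. It was below the median over all probe sets, 0.10, in the members other than *IAA13*. Across the 6 members, the IAA replicates did not deviate in a common direction. In the IAA group, replicate 2 was the higher array for *IAA7*, *IAA14* and *IAA18*, and replicate 1 was higher for *IAA9*, *IAA11* and *IAA13*.

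The size of the change differed among the members. Levels of different probe sets cannot be set against each other, so the order below is of changes within a probe set. For each gene the log2 difference was taken between each IAA array and each mock array, which gives 4 values. These ran from 1.58 to 1.77 in *IAA14*, from 1.43 to 1.72 in *IAA13* and from 1.39 to 1.52 in *IAA11*. In *IAA14* and *IAA13* the ranges overlapped, as did those of *IAA13* and *IAA11*, whereas *IAA14* and *IAA11* were apart. *IAA9* ran from 0.93 to 1.04 and *IAA7* from 0.74 to 0.94, which overlap at the edge, and both lay below the ranges of the first 3 genes. In *IAA18* the differences ran from -0.15 to 0.06, below those of every other member. The differences in size between genes are given as a description and were not tested.

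The size of the gap between the upper 3 genes and *IAA9* depended on how low values were handled. When 64 was added to every value ahead of the log, the changes on the log2 scale were 1.41 for *IAA13*, 1.13 for *IAA14*, 0.97 for *IAA11*, 0.94 for *IAA9* and 0.82 for *IAA7*, and *IAA13* had the largest. *IAA11* and *IAA14*, whose mock means of 77.2 and 75.1 were nearest to background, moved the most. With 16 added instead, the gap remained, at 1.53 for *IAA13*, 1.49 for *IAA14* and 1.29 for *IAA11* against 0.97 for *IAA9*. All 5 were still called under both settings.

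**Figure D2:**
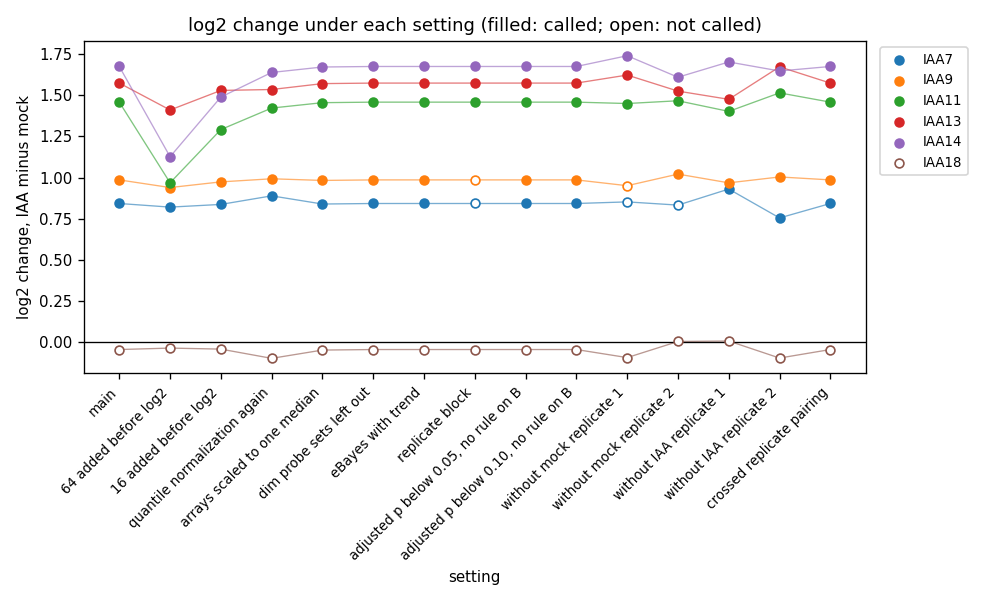
log2 change of each gene (vertical axis, IAA minus mock) under the main setting and 14 alternatives (horizontal axis), with thin lines joining the values of one gene, filled points for called values and open points for values not called. *IAA11*, *IAA13* and *IAA14* are filled throughout, *IAA9* is open in 2 alternatives and *IAA7* in 3, and *IAA18* stays near 0.

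Ordered by log2 change among the 337 probe sets called higher, *IAA14* ranked 85, *IAA13* 98, *IAA11* 108, *IAA9* 203 and *IAA7* 248. Within those 337 the members were thus not among the largest increases. Among all 22746 probe sets tested, their ranks were 88 for *IAA14*, 102 for *IAA13*, 117 for *IAA11*, 247 for *IAA9* and 329 for *IAA7*.

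The rest of the Aux/IAA family was measured on the same arrays. Of the 20 genes with a named probe set, 14 were increased, 0 were decreased by limma and 6 were not called. Of the 20, 9 had been named only through the study's auxin lists, and 5 of the remaining 11 were increased. A probe set absent from the platform's annotation was named only if the study listed it as changed by auxin or brassinosteroid. Genes that did not change could thus drop out of the 20. The share of 1.48% called higher over all probe sets therefore cannot be used to judge the 14. The 14 family members outside the 6 genes ran from -0.28 to 4.76 on the log2 scale, with a median of 2.11 and with 9 called higher. Of these 14, 5 had been named only through the study's auxin lists, so the same limit applies to this median and count. Of the close relatives of the 6 genes, *IAA8*, *IAA10*, *IAA12*, *IAA16*, *IAA17*, *IAA27* and *IAA28* had no named probe set and were not analysed here. The remaining relative, *IAA26* (AT3G16500), is grouped with *IAA18* and was named through the brassinosteroid lists. It read 235 and 232 in mock and 201 and 210 in IAA, so that both IAA arrays were the lower ones. The change was small, -0.18 ± 0.09 SE on the log2 scale, and was not called (limma adjusted p = 0.299). Neither gene of this pair was increased. The other genes not called were *IAA20*, *IAA31*, *IAA33* and *IAA34*. *IAA31* and *IAA33* lay below the background mark of 37.6 on every array. *IAA20* lay below it in both mock arrays and read 36.8 and 37.7 in IAA. In *IAA20*, *IAA31* and *IAA33*, no response therefore cannot be told from a signal too low to read. *IAA31* gave the lowest change of the family, -0.28. *IAA29*, with the highest change of 4.76, and *IAA30* were below the mark in both mock arrays, so the size of their increases is uncertain. *IAA5* and *IAA6* were below it in mock replicate 2 only, at 35.6 and 34.7, and the same caution applies to them.

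**Figure D3:**
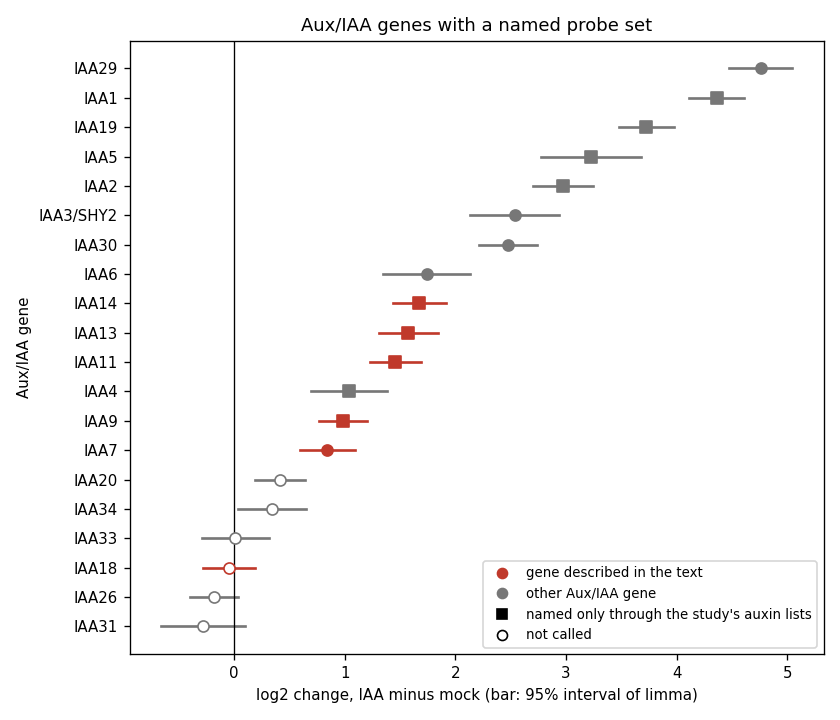
log2 change (horizontal axis, IAA minus mock) of the 20 Aux/IAA genes with a named probe set, with 95% intervals from limma (n = 2 arrays per group); red marks the 6 genes described here, squares genes named only through the study's auxin lists, and open symbols genes not called. *IAA14*, *IAA13*, *IAA11*, *IAA9* and *IAA7* lie between 0.84 and 1.68, below the largest changes of the family, and *IAA18* lies at -0.05.

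A pair of the members lie beside a more strongly increased Aux/IAA gene on the chromosome. By the order of protein-coding genes in RefSeq's TAIR10.1 annotation, *IAA14* is next to *IAA1* and *IAA7* is next to *IAA2*. *IAA1* rose 20.6-fold, from 70.2 ± 3.19 to 1444 ± 113 (SD, n = 2), where *IAA14* rose 3.19-fold. *IAA2* rose 7.84-fold, from 241 ± 27.7 to 1885 ± 19.1, where *IAA7* rose 1.79-fold. The probe sets of *IAA1*, *IAA2* and *IAA14* were named only through the study's auxin lists, chosen on these same arrays. Their increase was therefore fixed by that choice, and *IAA7* is on those lists as well. The differences within these pairs of neighbours were not tested.

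Few of the proteins that Aux/IAA repressors work with could be read. Of 15 ARF genes, 2 had a named probe set. *ARF8* encodes an ARF of the activating class. It read 106 and 106 in mock and 115 and 87.9 in IAA, with overlapping groups, and was not called. *ARF16* belongs to the class of ARFs that repress transcription. It read 40.5 and 44.5 in mock and 54.9 and 50.3 in IAA, and its log2 change of 0.31 ± 0.10 SE was not called (limma adjusted p = 0.180). No named probe set was found for any of 10 genes of auxin receptors and their ubiquitin ligase or for any of 5 TOPLESS-family corepressors, and these were not analysed here.

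Genes with the most similar pattern were sought among 6331 probe sets that name 1 gene and reach the median signal, by the Euclidean distance between centred log2 values over the 4 arrays. Such a distance over 4 arrays mostly compares the size of the change. *SPL13A*, a transcription factor gene of the SQUAMOSA promoter-binding family, was nearest to both *IAA11* (distance 0.05) and *IAA13* (0.14), and the suffix of its probe set marks sequence shared with a similar gene. The other close gene was the kinase gene *MAPKKK14* for *IAA11* (0.08) and the transporter gene *ZF14* for *IAA13* (0.15). *IAA14* was nearest to *SDR3*, for a short-chain dehydrogenase, at 0.07, and to AT4G17350 at 0.12. *IAA9* was nearest to AT3G01490 (0.07) and AT1G60010 (0.08), and *IAA7* to AT3G26910 (0.05) and the sulfotransferase gene *ST2B* (0.05). For *IAA18* the nearest were AT2G19650 and AT5G38830, both at 0.02 and both not called. *MAPKKK14*, *SDR3* and *ST2B* were candidates only through the study's auxin lists, and *SPL13A* and *ZF14* were named through its brassinosteroid lists. Probe sets absent from both the platform's annotation and those lists could not be found in this search.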

How the data were processed

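The deposited values are expression intensities per probe set on a linear scale, which the authors made with rma of the Bioconductor affy package (background correction, quantile normalization and summary). Its version and the arrays normalized together are not given in the sources used here, and the linear scale was inferred from the values. Quantile normalization hides a change shared by most transcripts. The study states that its replicates were biologically independent.

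The log2 of each value was used without a pseudocount. For 22746 probe sets (64 controls left out), lmFit and eBayes (limma 3.58.1, R 4.3.3) estimated the effect of treatment alone, with 3.66 prior degrees of freedom and Benjamini-Hochberg adjustment over all. Calls followed the study's rule, which asks for B above 0 and an adjusted p below 0.10. The fit was tested on simulated data. Alternatives changed the pseudocount, normalization, filter, variance model, call rule, pairing and arrays used. With 2 arrays per group, their number limits the precision.

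Names came from the platform's annotation (13513 with 1 gene, 503 with several), then through the study's lists for identity only (335 brassinosteroid, 150 auxin), and 8245 stayed unnamed. RefSeq TAIR10.1 gave symbols and gene order. Those lists also hold the authors' averages and fold changes, which were not used. Named were the 6 members, their listed relatives and chromosome neighbours, ARFs, markers, and the 2 nearest patterns per member. Where no ARF was called, the rule named only the one with the larger change, so *ARF8* was chosen after its values were seen. The members and lists were chosen with earlier results of these data known. The planned description of protein and promoter sequences was not made, because no sequence was used here.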

Additional observations from a re-analysis of the deposited data

How the results depend on the processing

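In 14 other settings *IAA11*, *IAA13* and *IAA14* kept their direction and their call in all, *IAA9* in 12 and *IAA7* in 11. *IAA18* was called in 0 (limma). The settings without the rule on B only re-read the main fit, so their outcome follows from its values. At an adjusted p below 0.10 that rule was looser than the main one, and no call could be lost. With the replicate number as a block, the log2 changes of *IAA7* (0.84) and *IAA9* (0.99) were as before by construction and were not called (limma adjusted p = 0.149 and 0.107), and 145 probe sets were called higher and 10 lower. The labels give the arrays only a number. Over probe sets, the deviations of same-numbered arrays had r = -0.19, and a crossed pairing, chosen after seeing the data, gave 299 higher and 86 lower. Leaving out 1 array in turn gave log2 changes of 0.75 to 0.93 for *IAA7*, 0.95 to 1.02 for *IAA9* and -0.10 to 0.0062 for *IAA18*, whose sign turned without mock replicate 2 and without IAA replicate 1. The 337 probe sets called higher became 158 (without mock replicate 1) to 397 (without IAA replicate 1), and the 85 lower ones 20 (without mock replicate 2) to 162 (without IAA replicate 2). Without the rule on B, 880 were higher and 513 lower at an adjusted p below 0.10, and 155 lower at 0.05. Such a fit assumes that the lone array varies like the others. Where the cause is not in the construction, it was not tested.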
